A study of Mus musculus with 14 samples.

Results

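Desert hedgehog and the core genes of the Hedgehog pathway were followed in 14 primary mouse glioblastomas, with 1 tumour per array on single-colour Illumina bead arrays. The members were the 9 genes Dhh, Shh, Ptch1, Smo, Gli1, Gli2, Gli3, Hhip and Gas1, of 18484 genes named on the array. All 16 probes annotated to their symbols were examined, and in tests of genes the brightest probe that passed the detection filter below stood for its gene. The set was chosen by a measured value, the difference of Dhh between the tumour types in these same arrays, so that difference is given as a description without a test. A probe counted as detected on an array when its deposited detection p was under 0.05, and genes with a probe detected on at least 3 arrays were tested. That held for 7 of the 9 members and for 11786 genes in all.

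The 7 Type 2 tumours came from mice carrying NG2-CreERTM, a tamoxifen-inducible Cre under the promoter of NG2 (Cspg4), a proteoglycan of oligodendrocyte precursors and pericytes. The 7 Type 1 tumours came from mice carrying Nestin-CreERT2, an inducible Cre under the promoter of nestin, an intermediate filament of neural stem and progenitor cells. Mice of both groups carried floxed Trp53 on both alleles, floxed Nf1 on a single allele and a Rosa-lsl-tdTom reporter on a mixed background. They received tamoxifen once by gavage, 10 mg per 20 g of body weight, at 6 to 8 weeks of age, and were kept until symptoms appeared. Cre is active in every cell type in which its promoter is on, so neither line fixes a single cell of origin, and the tumours also hold host cells. Batch 1 held 4 Type 2 and 3 Type 1 tumours, and batch 2 held 3 Type 2 and 4 Type 1 tumours. The arrays lay on 5 chips that each held 1 type, so chip and type cannot be told apart. Replicate numbers follow the order of the records and pair nothing. Between 19299 and 20868 probes were detected per array. The glioma genes Olig2, Sox2, Nes, Gfap and Pdgfra were detected in all 14 tumours.

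Hedgehog ligands are secreted lipid-modified proteins that bind the receptor Patched. In the absence of ligand Patched keeps the membrane protein Smoothened inactive. Ligand binding frees Smoothened, and GLI transcription factors then switch on target genes that include Gli1, Ptch1 and Hhip, so the transcripts of these targets are commonly used as readouts of pathway activity. Sonic hedgehog patterns the embryonic neural tube and drives the expansion of cerebellar granule neuron precursors. Desert hedgehog is known from Sertoli cells of the testis and from Schwann cells, where it organises the sheath around peripheral nerves.

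The promoters of Dhh, the ligand around which the set was built, and of Ptch1, a textbook target of the pathway, are shown for context with the sequence up to the annotated start. Both are from RefSeq (GRCm38.p6) and are written 5′ to 3′ on the strand of the gene, with GC boxes (GGGCGGG or CCCGCCC) in capitals. The Dhh window is chr15:98898541-98898790, minus strand, and the Ptch1 window is chr13:63565736-63565985, minus strand.
Dhh promoter: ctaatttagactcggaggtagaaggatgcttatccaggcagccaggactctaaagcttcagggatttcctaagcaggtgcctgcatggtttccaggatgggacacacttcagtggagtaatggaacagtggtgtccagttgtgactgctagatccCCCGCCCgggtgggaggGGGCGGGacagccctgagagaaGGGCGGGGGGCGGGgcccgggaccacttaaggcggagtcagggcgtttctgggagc
Ptch1 promoter: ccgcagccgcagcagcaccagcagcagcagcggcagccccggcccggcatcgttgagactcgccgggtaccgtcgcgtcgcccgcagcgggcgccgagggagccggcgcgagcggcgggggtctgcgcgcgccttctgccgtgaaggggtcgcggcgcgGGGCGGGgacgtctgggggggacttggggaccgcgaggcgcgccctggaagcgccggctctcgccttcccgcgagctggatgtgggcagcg
The Dhh window held 4 GC boxes and 9 CpG dinucleotides at a GC content of 59.6%. The Ptch1 window held 1 GC box and 41 CpG dinucleotides at 78.4% GC. Over all 32851 windows of this length the medians were 6 CpG and 52.4% GC, and 23.4% of windows held a GC box. Windows were also available for Smo, Gli2, Gli3, Hhip and Gas1. The GLI motif TGGGTGGTC and the SOX motif ACAAAG, searched on both strands, occurred in 0.225% and 16.5% of all windows and in none of the 7 member windows. This says only that those letters are not within these 250 bases.

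Dhh was abundant in Type 2 tumours and at or near background in most Type 1 tumours. Its normalized log2 signal ranged from 8.06 through a median of 9.43 to 12.53 in Type 2 tumours, against 4.65, 5.32 and 7.96 in Type 1 tumours. Every Type 2 tumour lay above every Type 1 tumour, which held for 0.602% of all tested genes, and the probe was detected in 7 of 7 Type 2 and 3 of 7 Type 1 tumours. The highest Type 2 tumours were replicate 3 at 12.53 and replicate 4 at 11.74, both of batch 1. The Type 1 tumours with detected signal were replicates 3, 4 and 7, at 6.04, 6.16 and 7.96. Type 1 replicate 7 thus reached nearly the level of Type 2 replicate 2, the lowest of its group at 8.06. Dhh averaged 10.00 ± 1.65 in Type 2 and 5.77 ± 1.10 in Type 1 tumours (SD, n = 7 each), a difference of 4.20 ± 0.70 (SE) on the log2 scale, or 18.4-fold. As 4 of the 7 Type 1 values were not above background, this fold is set partly by the background level, and without background correction the difference was 2.56. Differences here and below are Type 2 minus Type 1 with batch as a term. Within batches the Dhh difference was 4.98 in batch 1 and 3.42 in batch 2. In a bulk tumour, fewer cells of a type and less RNA per cell cannot be told apart.

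Shh, the ligand of the neural tube and cerebellum, ran the other way in level but did not pass the test. Its better detected probe ranged from 4.62 through a median of 4.76 to 5.85 in Type 2 tumours, against 4.94, 5.88 and 8.68 in Type 1 tumours. The groups overlapped, with 2 of 7 Type 2 and 5 of 7 Type 1 tumours detected, and the high values belonged to Type 1 replicate 1 at 8.68 and Type 1 replicate 2 at 7.65. The difference was -1.37 ± 0.47 (95% interval -2.37 to -0.38, limma unadjusted p = 0.0103, adjusted p = 0.104), and was -2.22 in batch 1 and -0.53 in batch 2. The second Shh probe was detected in 0 Type 2 tumours and in 2 Type 1 tumours, which were the same replicates 1 and 2. Type 1 replicate 1 also had the highest summed signal of the choroid plexus genes, 28629, against 198 to 14612 in Type 2 tumours. Without it the Shh difference was -0.96, and the part of choroid plexus tissue in the Shh signal was not tested. The third ligand gene, Ihh, had too few detected arrays to be tested.

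**Figure D1:**
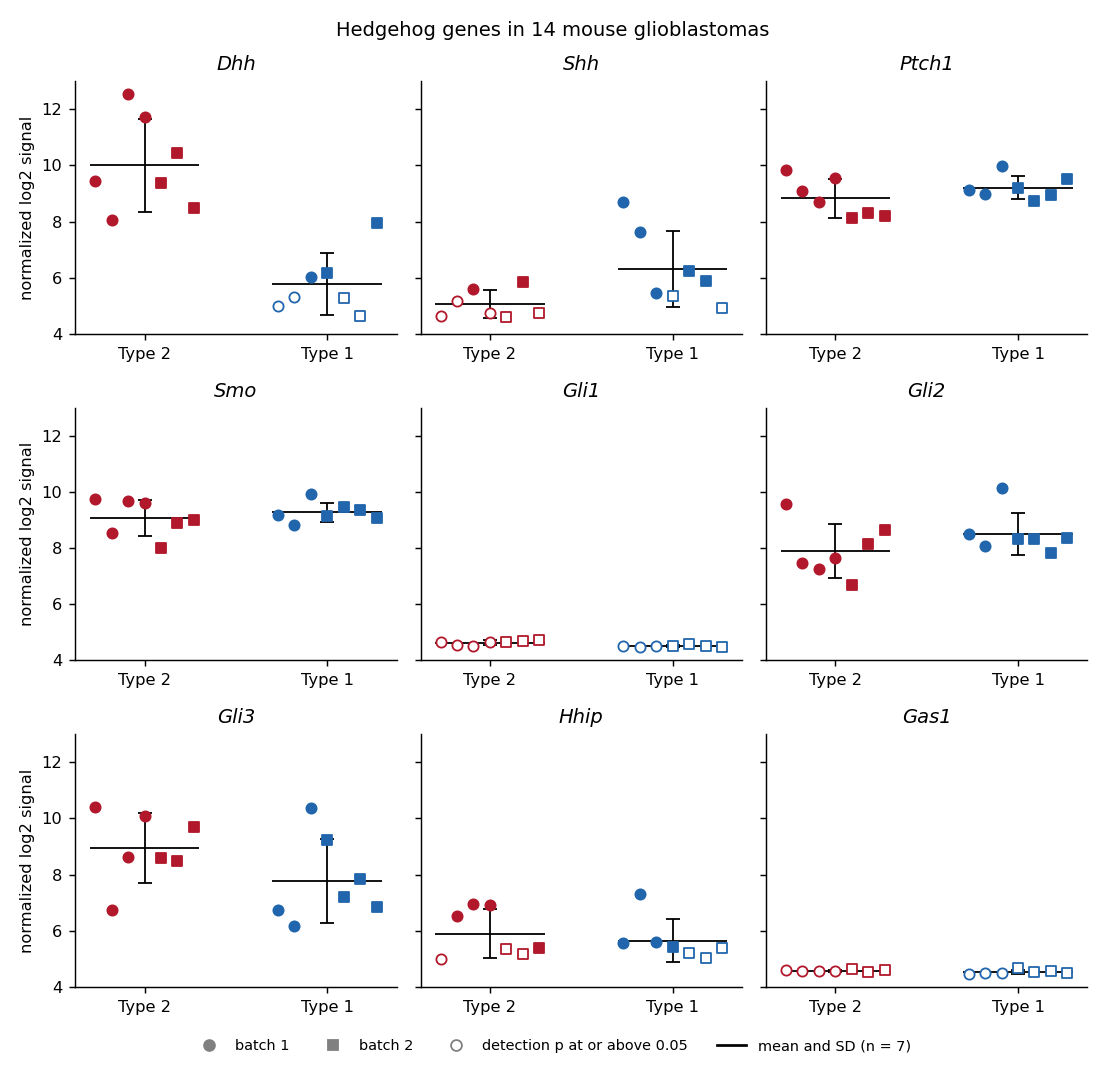
Normalized log2 signal of the 9 Hedgehog members by tumour type (Type 2 left, Type 1 right), with circles for batch 1 and squares for batch 2. Open symbols mark tumours in which the probe was not detected, and black lines give the mean and SD of 7 tumours. Dhh is the panel without overlap, with Type 2 tumours from 8.06 to 12.53 and Type 1 tumours from 4.65 to 7.96. In all other panels the types overlap, and Gli1 and Gas1 were not detected in any tumour.

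Neither Ptch1 nor Smo, the receptor and signal transducer at the cell surface, passed the test. Ptch1, the Hedgehog receptor and itself a target gene, was detected in all 14 tumours and ranged from 8.11 through 8.70 to 9.82 in Type 2 tumours, against 8.74, 9.11 and 9.98 in Type 1 tumours. The groups overlapped, and 4 of the 7 Type 2 tumours lay below the lowest Type 1 tumour. Ptch1 averaged 8.82 ± 0.68 in Type 2 and 9.20 ± 0.42 in Type 1 tumours, a difference of -0.48 ± 0.24 (95% interval -0.98 to 0.03, limma adjusted p = 0.259). The difference was -0.064 in batch 1 and -0.89 in batch 2, and of those 4 tumours 3 were of batch 2 and replicate 3 was of batch 1. The interaction of type and batch was not called for Ptch1 (limma adjusted p = 0.364). Limma called it for 0 of the 7 members, and for 0% of all genes, and at an unadjusted p under 0.05 it passed 0 members and 16.4% of all genes. The interval for Ptch1 reached just past no change at its upper end. A second, dimmer Ptch1 probe, detected in 6 of 7 Type 2 and 7 of 7 Type 1 tumours, differed by -0.35 (limma p adjusted over all probes 0.302).

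Smo, the Smoothened protein that carries the signal once Patched is bound, had 4 probes, of which 1 was detected nowhere. Its brightest probe ranged from 8.00 through 9.0 to 9.75 in Type 2 tumours, against 8.83, 9.17 and 9.91 in Type 1 tumours. The groups overlapped nearly in full, and the lowest value was that of Type 2 replicate 5, the Type 2 tumour highest in choroid plexus genes, without which the difference was -0.088. The difference was -0.27 ± 0.25 (95% interval -0.81 to 0.27, limma adjusted p = 0.585), at 0.083 in batch 1 and -0.62 in batch 2. The dimmer detected Smo probes differed by -0.42 and -0.40 (limma p adjusted over all probes 0.486 and 0.491). Gas1, a membrane-anchored co-receptor, gave log2 signals between 4.47 and 4.68 with detection p between 0.46 and 0.959. Its single probe was thus not above background in any of the 14 tumours and no level can be given.

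Hhip, a membrane protein that binds and sequesters Hedgehog ligands and is itself induced by the pathway, was low in both types. It ranged from 4.99 through 5.37 to 6.96 in Type 2 tumours, against 5.02, 5.41 and 7.32 in Type 1 tumours. The probe was detected in 4 of 7 tumours of each type, and the highest values were Type 1 replicate 2 at 7.32 and Type 2 replicates 3, 4 and 2 at 6.96, 6.90 and 6.52. Type 2 replicates 3 and 4 were the highest in Dhh and replicate 2 was the lowest of its type, while Type 1 replicate 2 had a Dhh signal of 5.32, not above background. The difference was 0.12 ± 0.32 (95% interval -0.57 to 0.81, limma adjusted p = 0.873). All 4 of these tumours were of batch 1, and batch 2 minus batch 1 was -0.97 for Hhip (limma adjusted p = 0.0706) and -0.67 for Ptch1 (limma adjusted p = 0.0850). For batch, limma called 0 of the 7 members, where 10.7% of all genes were called, and 2 of the 7, Ptch1 and Hhip, passed at an unadjusted p under 0.05, where 26.3% of all genes did.

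Gli1, the transcription factor whose transcript is the usual readout of Hedgehog activity, was not detected in any tumour. Its single probe gave log2 signals between 4.48 and 4.73 with detection p between 0.34 and 0.952. No rise of this readout above background was thus seen in any tumour, and a fall or a change below background could not be seen with this probe. Gli2, the main activator of the family, ranged from 6.67 through 7.64 to 9.56 in Type 2 tumours, against 7.81, 8.32 and 10.15 in Type 1 tumours. The groups overlapped, and the highest tumours of each type were Type 2 replicate 1 at 9.56 and Type 1 replicate 3 at 10.15. The difference was -0.66 ± 0.42 (95% interval -1.56 to 0.25, limma adjusted p = 0.397). A second, dimmer Gli2 probe was detected in 0 of 7 Type 2 and 4 of 7 Type 1 tumours. Its Type 2 values, 4.57 to 5.02, were not above background. Its difference of -0.60 (limma p adjusted over all probes 0.127) is thus set partly by the background level.

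Gli3, which acts mostly as a repressor of target genes, spread widely within both types. It ranged from 6.73 through 8.61 to 10.40 in Type 2 tumours, against 6.17, 7.18 and 10.37 in Type 1 tumours. High and low tumours were present in both types, with Type 2 replicates 1 and 4 and Type 1 replicate 3 above 10. The difference was 1.17 ± 0.69 (95% interval -0.30 to 2.64, limma adjusted p = 0.349), at 1.19 in batch 1 and 1.15 in batch 2. A second, dimmer Gli3 probe, detected in 2 Type 2 tumours and 1 Type 1 tumour, differed by 0.26 (limma p adjusted over all probes 0.655). Between the types, limma called 0 of the 6 tested members other than Dhh at an adjusted p under 0.05, where 4.64% of all genes were called. At an unadjusted p under 0.05 it passed 1 of the 6, Shh, where 21.8% of all genes passed.

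The arrays also allow the question of whether the pathway followed Dhh tumour by tumour. The level of each gene was fitted on the level of Dhh with type and batch as terms, which gives the change in its log2 signal per log2 unit of Dhh. The slope was 0.089 for Ptch1 (95% interval -0.11 to 0.28, limma adjusted p = 0.995) and 0.14 for Hhip (95% interval -0.12 to 0.41, limma adjusted p = 0.981). For Smo it was 0.13, for Gli3 0.19, for Gli2 -0.070 and for Shh -0.18, all with intervals that included 0. None of the 6 members passed at an adjusted or at an unadjusted p under 0.05 in limma. Among all other genes limma called 0, and 5.29% passed at an unadjusted p under 0.05. The intervals allow a Ptch1 change of at most 0.28 and an Hhip change of at most 0.41 per log2 unit of Dhh.

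Single tumours show how the values were paired. Type 2 replicate 3, the highest in Dhh at 12.53, had Ptch1 at 8.70, the median of its group, and Type 2 replicate 4, the next in Dhh at 11.74, had Ptch1 at 9.55. The highest Ptch1 of the group, 9.82, was in Type 2 replicate 1, whose Dhh of 9.43 was the group's median. Among Type 1 tumours, replicate 3 had the highest Ptch1 at 9.98 with Dhh at 6.04, and replicate 7 had the next at 9.50 with Dhh at 7.96. The tumours highest in Dhh and highest in Ptch1 were thus different ones within each type.

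Within each type the correlation with Dhh was computed over 7 tumours for 6 members, 12 relations in all, with exact two-sided permutation tests. In Type 2 tumours Ptch1 gave r = 0.159 and rho = 0.25 (exact permutation p = 0.722 and 0.595), and r was -0.145 without replicates 3 and 4, the tumours farthest from the median of Dhh. Hhip gave r = 0.537 and rho = 0.321 in Type 2 tumours (exact permutation p = 0.217 and 0.498), and r was -0.723 without the same replicates, so the positive value rested on them. In Type 1 tumours Ptch1 gave r = 0.560 and rho = 0.714 (exact permutation p = 0.201 and 0.0881), and r was 0.775 without replicates 4 and 7. There 4 of the 7 Dhh values were not above background. The Benjamini-Hochberg adjusted p over all genes was 0.965 or higher for all 12, and 0 genes of the whole array were called in either type. With 7 tumours the smallest p that the permutations can give is 0.000198, so a single gene could not pass adjustment over 11785 genes, and the absence of calls was nearly fixed by the number of tumours. At an unadjusted exact p under 0.05, 512 genes passed in Type 2 and 396 in Type 1 tumours, none of them a member. Batches of 3 or 4 tumours per type are too few for a value of their own. After the mean of each type and batch was subtracted, r over the 14 tumours was 0.16 for Ptch1, 0.32 for Hhip and 0.32 for Smo, given as a description.

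**Figure D2:**
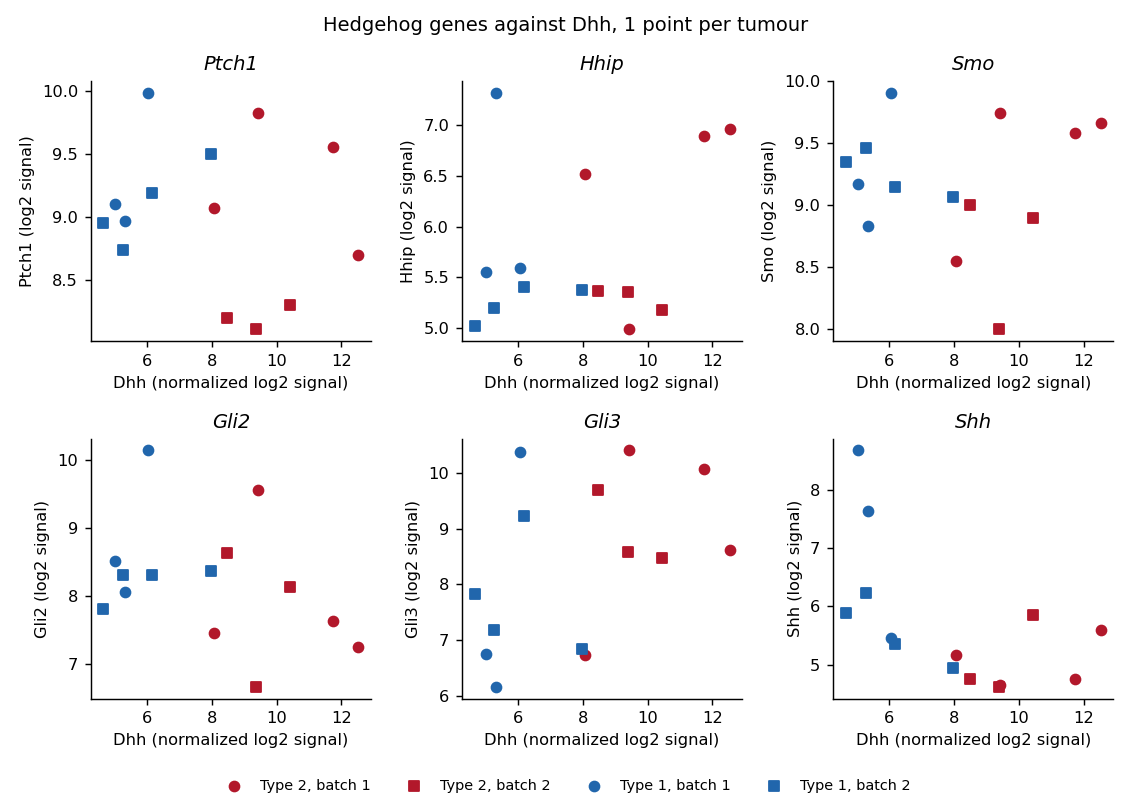
Normalized log2 signal of each tested member other than Dhh (vertical axes) against that of Dhh (horizontal axes) in the 14 tumours, by type, with circles for batch 1 and squares for batch 2. Type 2 tumours spread along Dhh from 8.06 to 12.53 without a matching gradient in Ptch1, and Hhip signals of 6.96, 6.90 and 6.52 belong to the Type 2 tumours highest and lowest in Dhh.

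Further genes of the pathway, taken from a list of 43 of which 39 were on the array by name and 32 were tested, gave a similar picture. Of these, 1 was higher in Type 2 tumours, 1 was lower and 30 were not called by limma, where 2.32% of all genes were called in each direction. The median difference was 0.015, against 0.0055 over all genes. No gene among the 32 had a called slope on Dhh, none passed at an unadjusted p under 0.05, and the slopes were positive for 18 and negative for 14, with a median of 0.022. All genes had a median slope of -0.0037, and 48.3% of them a positive one.

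Among the target genes Bmp4, a BMP family ligand that Hedgehog signals induce in several embryonic tissues, was higher in Type 2. It ranged from 8.71 through 9.82 to 10.83 in Type 2 tumours, against 6.50, 8.54 and 9.29 in Type 1 tumours. The groups overlapped in part, and the difference was 1.68 ± 0.38 (limma adjusted p = 0.0268), at 2.19 in batch 1 and 1.17 in batch 2. The call was lost without Type 2 replicate 6 or 7 or Type 1 replicate 5, in each batch alone and with probes averaged. The other 8 tested targets were not called. Among them Ccnd1, the cyclin that carries cells through G1, differed by 0.43 (limma adjusted p = 0.279) and Foxf1, a mesodermal target, by -0.84 (limma adjusted p = 0.148). Mycn and Foxf2 were detected in no tumour.

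Among the co-receptors and other membrane proteins Lrp2, an endocytic receptor that takes up Shh in the forebrain, was lower in Type 2. It ranged from 4.68 through 5.03 to 5.46 in Type 2 tumours, against 5.56, 5.78 and 7.68 in Type 1 tumours. The groups did not overlap, as for 0.628% of all genes in this direction, but the signal was close to background, with 1 of 7 Type 2 and 7 of 7 Type 1 tumours detected. The difference was -1.11 ± 0.28 (limma adjusted p = 0.0402), at -1.59 in batch 1 and -0.64 in batch 2. Of the 14 tumours, 10 ended this call when left out singly. Cdon, a co-receptor, differed by -1.28 (limma adjusted p = 0.0837) and its relative Boc by 0.00084 (limma adjusted p = 0.999). The 15 tested genes that act between Smoothened and the GLI proteins, such as the inhibitor Sufu with -0.27 (limma adjusted p = 0.434), were all not called. None of Hhat, Disp1 and Scube3, the 3 tested genes for ligand processing and release, was called either.

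**Figure D3:**
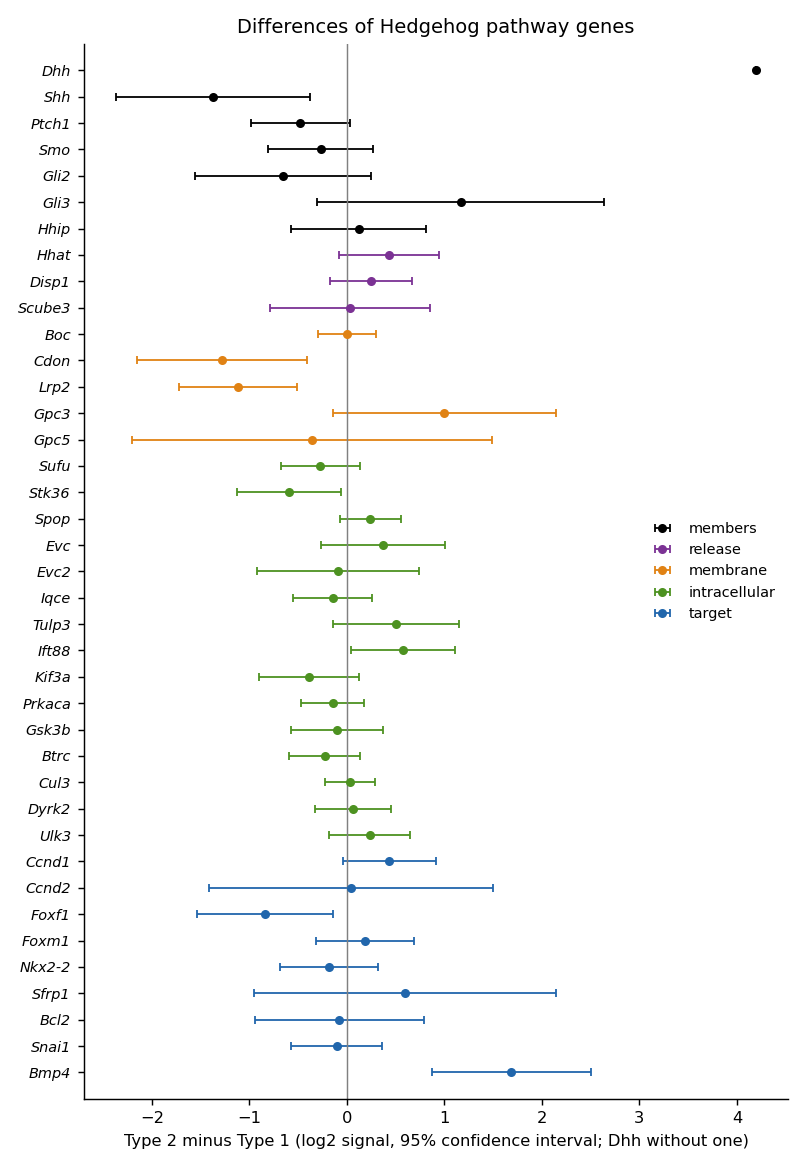
Difference between the types (Type 2 minus Type 1, log2 signal) for the tested Hedgehog members and the further pathway genes, with 95% confidence intervals from limma for all genes but Dhh, which is shown without one. Dhh lies at 4.20, apart from all the others, which fall between -1.37 and 1.68.

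Part of the markers of Schwann cells, a cell type known to make Dhh, were also higher in Type 2. Of 8 Schwann cell genes with a named probe 7 were tested, all 7 had positive differences and 4 were called higher in Type 2 by limma, where 2.32% of all genes were, with a median of 1.39 against 0.0055 over all genes. The called ones were Cdh19, a cadherin of Schwann cell precursors, at 2.23 ± 0.56 (limma adjusted p = 0.0387), Ngfr, a neurotrophin receptor, at 1.91 ± 0.46 (limma adjusted p = 0.0333), Sox10, a glial transcription factor, at 1.79, and Erbb3, the neuregulin receptor, at least 1.66-fold higher and detected in 0 Type 1 tumours. The summed signal of the list was 14979 to 27116 in Type 2 and 4611 to 15252 in Type 1 tumours. This sum is weighted to its brightest probe, that of Sox10, with mean log2 signals of 13.96 in Type 2 and 12.23 in Type 1 tumours. It is thus not a measure of Schwann cell content. Foxd3 was detected in no tumour. Leaving out single tumours ended the call of Sox10 in 12 of 14 cases, of Cdh19 in 9, of Ngfr in 7 and of Erbb3 in 0. Erbb3 passed the detection filter through Type 2 tumours alone. Its call, the stability of that call and the list's median of 1.39, which is the Erbb3 difference, thus set Type 2 values against background. Sox10 is also made by oligodendrocyte lineage cells, and the 5 oligodendrocyte genes were divided. Cnp, at 1.59, and Cldn11, at 0.74, were called higher in Type 2, while Mobp, at -1.21, Mog, at -0.29, and Mag, at -0.16, were not called and the median was -0.16. Their summed signal, with Cldn11 the brightest, was 19194 to 32524 in Type 2 and 11596 to 19165 in Type 1 tumours, without overlap. The part of oligodendrocyte lineage cells in the Sox10 signal was not tested.

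Within the types no Schwann cell gene passed the test of a slope on Dhh. All 7 had positive slopes on Dhh, with a median of 0.23 against -0.0037 over all genes, and 3 passed at an unadjusted p under 0.05, where 5.29% of all genes passed and limma called 0 after adjustment. Slopes were also all positive for the 3 tested pigment, 4 fibroblast and 5 oligodendrocyte genes, with medians of 0.37, 0.26 and 0.093. Of these, 2 pigment, 2 fibroblast and 1 oligodendrocyte gene passed at a limma unadjusted p under 0.05. The other marker lists had slopes of both signs. Of the 3 tested pigment cell genes, Dct and Pmel were called, at 4.40 and 3.84, and Slc45a2, at 0.000016, was not. Dct was detected in 2 of 7 Type 1 tumours, so its difference is set partly by the background level. The summed signal of the 3 genes was 618 to 6210 in Type 2 and 108 to 207 in Type 1 tumours. Tyr, Tyrp1, Mitf and Gpr143 were detected in no tumour. Of 4 tested fibroblast genes 2 were called higher in Type 2, Lum at 2.47 and Col1a1 at least 2.28-fold, and all 4 had positive differences, with a median of 1.23. Col1a1 was detected in 6 of 7 and Col1a2 in 4 of 7 Type 2 tumours, and both in 0 of 7 Type 1 tumours. The call of Col1a1 and the positive difference of Col1a2 thus set Type 2 values against background, and the median does so in part. Of 9 endothelial genes 2 were called higher in Type 2, Vwf at 1.78 and Tie1 at 0.87, and 7 were not called. Tie1 was detected in 7 of 7 Type 2 and 1 of 7 Type 1 tumours, so its call, and the stability of that call, rest partly on the background level. The uncalled endothelial genes ran from Kdr at -0.064 and Tek at 0.087 to Emcn at 1.38 (limma adjusted p = 0.0507). Differences were positive for 8 of the 9 endothelial genes, with a median of 0.76. Their summed signal was 6241 to 10345 in Type 2 and 2310 to 6159 in Type 1 tumours, without overlap. Single left-out tumours ended the call of Col1a1 in 12 of 14 cases, of Cldn11 in 10, of Cnp in 3 and of Dct, Pmel, Lum, Vwf and Tie1 in 0. Endothelial slopes on Dhh had a median of -0.0083. Of 7 astrocyte genes 2 were called lower in Type 2, Aqp4 at -2.12 and Slc1a2 at -2.03, and all 7 had negative differences, with a median of -1.31. The summed astrocyte signal was 17300.8 to 32564.5 in Type 2 and 32955.3 to 81839.4 in Type 1 tumours, without overlap. Of 4 tested neuronal genes 1 was called lower, Rbfox3 at -2.65, and all 4 had negative differences, with a median of -1.15. Atoh1, Neurod1 and Gabra6, markers of the cerebellar granule lineage in which Shh acts, were detected in no tumour. Of the same list Zic1 was detected in 5 of 7 Type 2 and 7 of 7 Type 1 tumours and Barhl1 was also tested, and neither was called between the types, with Zic1 at -0.77 and Barhl1 at -0.0033. The slope of Zic1 on Dhh was -0.60 (limma unadjusted p = 0.00203) and was not called after adjustment. The part of these cells in the Dhh signal was not tested.

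Likeness to Dhh was ranked over 11451 genes, with predicted and unnamed transcripts left out. Those most like Dhh in level over the 14 tumours by Pearson's r were Fbxo7 at 0.951, Slc31a2 at 0.945, Erbb3 at 0.941, Pmel at 0.935 and Dgka at 0.929. These values carry the type difference and the shared arrays, and are a description. After the means of type and batch were subtracted, the most like were Man1c1 at 0.941, Stimate at 0.915, Dgka at 0.870, Egfl8 at 0.870 and Xrra1 at 0.857. These are the highest of 11451 values and are a description as well. Xrra1 was detected in only 4 Type 2 tumours and 1 Type 1 tumour, so its r rests largely on values near background. Dgka, a diacylglycerol kinase, thus stood in both groups of 5. No member of the pathway was near: by the second measure Smo ranked 2039, Hhip 2071, Gli3 3200, Ptch1 3577, Gli2 6496 and Shh 7459 of 11451 genes.

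**Figure D4:**
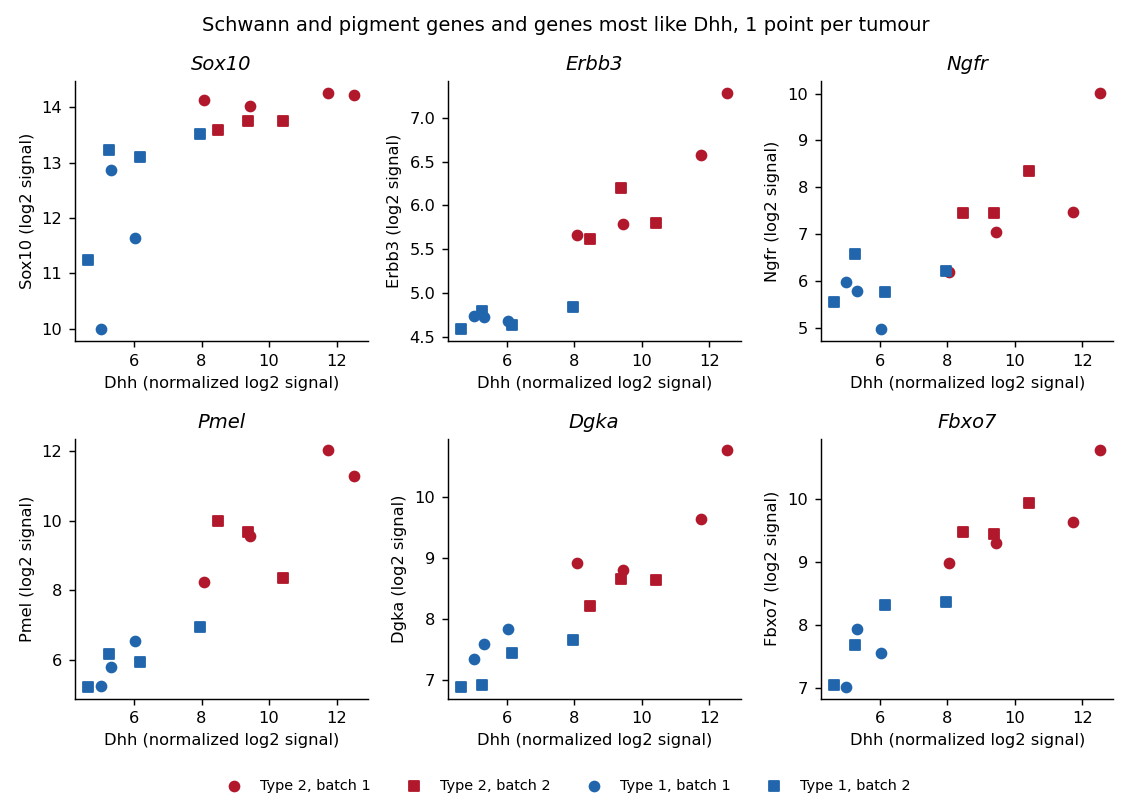
Normalized log2 signal of the Schwann cell genes Sox10, Erbb3 and Ngfr, the pigment gene Pmel and the like-patterned genes Dgka and Fbxo7 (vertical axes) against that of Dhh (horizontal axes) in the 14 tumours, in red for Type 2 and blue for Type 1, with circles for batch 1 and squares for batch 2. The highest Erbb3, Dgka, Ngfr and Fbxo7 signals are in the Type 2 tumour with the highest Dhh, 12.53.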

How the data were processed

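Per the file headers, the deposited signal table holds bead intensity and a detection p-value for 45281 probes on each array, and the authors did not normalize it. The submitters' processing notes name BeadStudio without a version. Another deposited table holds the authors' processed log2 values of 38502 probes. Their direction followed log2 signal (own-array r 0.999 or higher over 6866 bright probes, at most 0.328 with other arrays) and their array medians were 2.67 to 2.69, but scale and centring are unknown, so only differences from it were used, as an alternative.

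Intensities were background-corrected and quantile-normalized with neqc (offset 16) of limma 3.58.1 in R 4.3.3. Of the probes, 32034 had 1 gene symbol in the platform annotation, 16 several and 13231 none. The brightest passing probe stood for its gene. Levels of different probes were not compared, except that the summed signals of marker lists add them and so are weighted to the brightest ones. Types were compared in limma (lmFit, eBayes), with a batch term, over 11786 genes. A call was a Benjamini-Hochberg adjusted p under 0.05. Slopes on Dhh and the interaction of type and batch were fitted likewise, and the model was tested on simulated data. Where a type had no array with a detected signal, the fold is a bound from the lowest detected signals and excludes the batch term.

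The rule for naming took all members, called genes of the lists, the 5 genes most like Dhh by each of 2 measures (level, and level less type and batch means) and genes in counts of 5 or fewer. Predicted and unnamed transcripts were left out of the ranking by likeness to Dhh. Ccnd1, Foxf1 and Sufu were chosen after their values were seen. Members and lists were chosen with earlier results of these data known. The labels describe separate tumours, so p-values reflect the spread among these tumours, and the number of arrays limits the precision. Alternatives covered batch, chip, background correction, scaling, filters, probes, weights and left-out tumours. Trp53 was not analysed here. Some of the genotype is not reported here.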

Additional observations from a re-analysis of the deposited data

Results flagged for a closer look

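Within each type, the 7 tumours of every tested member were examined for a value far from the others, as 14 groups against Dixon's 95% critical value, which chance alone exceeds in about 1 in 20 groups. In 2 groups a tumour stood apart. Type 1 replicate 3 had a Gli2 signal of 10.15, while the other Type 1 tumours lay between 7.81 and 8.51, and the gap was 0.698 of the range. Type 1 replicate 2 had an Hhip signal of 7.32, while the others lay between 5.02 and 5.60, and the gap was 0.750 of the range. The same replicate 2 had the second highest Shh signal among the tumours, 7.65, and replicate 3 the highest Ptch1 signal, 9.98. Without Type 1 replicate 3 the Gli2 difference was -0.35, against -0.66 with all tumours, and without Type 1 replicate 2 the Hhip difference was 0.37, against 0.12.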

How the results depend on the processing

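The count of 0 members other than Dhh called between types and of 0 members or other genes called for a slope on Dhh was the same under all 26 alternatives, and that of 0 interactions under 24. The Dhh difference was 2.56 without background correction and 3.82 to 4.56 when single tumours were left out. Over the array, all genes called between types numbered 547, against 166 in batch 1 alone, 123 in batch 2 alone and 106 without the choroid tumours (Type 2 replicate 5 and Type 1 replicate 1, highest in choroid plexus genes), 774 with array weights, and 195 to 639 when single tumours were left out. The count fell by over 1.5 times without Type 2 replicates 3 to 7 (278, 330, 326, 344 and 347) and Type 1 replicates 1, 2 and 5 (308, 195 and 267). The 2 called further pathway genes became 0 in each batch alone, 1 without background correction, with median scaling, in the authors' values, without a detection filter, with probes averaged and without the choroid tumours, and 0 to 3 when single tumours were left out. The third, without Type 1 replicate 7, was Cdon at -1.48 (limma adjusted p = 0.0415). Signs that turned were all of uncalled values. The Smo difference was 0.083 in batch 1 alone, and that of Hhip was -0.045 without the choroid tumours and -0.021 to 0.37 when single tumours were left out. Slopes on Dhh were -0.030 for Ptch1 in batch 1 alone and, in batch 2 alone, -0.088 for Smo, 0.048 for Gli2 and -0.29 for Gli3. With probes averaged the Gli2 slope was 0.017, and with single tumours left out it was -0.18 to 0.055, and for Gli3 -0.066 to 0.41. Causes were not tested. No paired analysis was possible because replicate numbers only name tumours. Signal over background limits Gli1, Gas1, Shh and Hhip, and Dhh in Type 1.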

Other observations

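Erbb3, Pmel and Dgka, which are among the 5 genes most like Dhh in level, lie close together on mouse chromosome 10 (gene order from GRCm38.p6), whereas Dhh lies on chromosome 15. This neighbourhood was chosen after its values were seen. From Erbb3 to Dgka there are 8 coding genes, Erbb3, Rps26, Ikzf4, Suox, Rab5b, Pmel, Cdk2 and Dgka, of which 7 were tested. Pmel differed between the types by 3.84 ± 0.53 and Dgka by 1.61 ± 0.28. The 4 tested genes in between were not called, with 0.0023 for Rps26, 0.41 for Suox, -0.097 for Rab5b and 0.58 for Cdk2. Nor were the 3 coding genes on either side, whose differences lay between -0.34 for Mmp19 and 0.43 for Tmem198b.

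Fbxo7, a ubiquitin ligase subunit, differed by 1.97 ± 0.29 and Slc31a2, a copper transporter family member, by 1.06 ± 0.20 between the types, both higher in Type 2. They were selected on a correlation that carries the type difference, so these values are a description with no test. Man1c1 and Stimate, most like Dhh after the means of type and batch were removed, had differences of 0.27 and 0.40 between the types and were not called (limma adjusted p = 0.323 and 0.257).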
